A study of Mus musculus with 189 samples.

Results

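The genes examined were 3 mast cell tryptases, Tpsb2, Tpsab1 and Tpsg1, and carboxypeptidase A3, Cpa3. They were taken by name, and all 4 were found among the 46078 gene rows of the count table. RNA had been sequenced from single cells, sorted out of the peritoneal cavities of 4 female mice of strain C57BL/6, in a study of late mast cell differentiation. Both groups were live cells without lineage markers that carried c-Kit and FcεRI, the high-affinity receptor for IgE. Mature mast cells were gated as integrin β7 low with high side scatter, and basophil-mast cell progenitors (BMCPs), a gate named for precursors of both lineages, as integrin β7 high with low side scatter. No genotype or treatment separated the groups, and the labels did not assign any cell to a mouse. Each group was therefore 1 pooled sample, and no difference between the groups was tested. Intervals on CPM cover the counting of reads only, with PCR copies taken as separate reads, and leave out the spread between cells. Intervals on shares and medians cover the number of cells only. Neither covers differences between mice or preparations.

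All 94 mature mast cells and 93 of 95 BMCPs had at least 100000 reads on endogenous genes and were used. Mature mast cells held 561600 to 2152221 such reads (median 1255267) and BMCPs 344022 to 2091665 (median 1247890). Levels are given as CPM, the reads of a gene per 1000000 endogenous reads. Without molecular identifiers in the protocol, each PCR copy counted as a read. The summed level of 12 mast cell genes other than the 4 was 97119 to 178412 CPM in mature mast cells and 921 to 187248 CPM in BMCPs. The low end was a well with B cell RNA, described below. Outside the wells of that kind, BMCP 46 and BMCP 80, Cma1 of this list alone was at 2700 CPM or more in every BMCP. Lists for T cells, neutrophils and erythroid cells stayed under 5 CPM summed in every cell, apart from 764 CPM of T cell genes in BMCP 44. The eosinophil list reached 321 CPM in a mature mast cell and 805 CPM in BMCP 53. The basophil list spanned 4.33 to 30540 CPM in mature mast cells and 3.64 to 37348 CPM in BMCPs. In the pooled mature cells Prss34 was at 2899 CPM, Cd200r3 at 557 and Mcpt8 at 30.2. In the pooled BMCPs Mcpt8 was at 3294 CPM, Prss34 at 1580 and Cd200r3 at 345. By the median over mature mast cells Cd200r3 was highest at 534 CPM, against 6.93 for Prss34 and 2.86 for Mcpt8. Of 7 macrophage genes only Apoe passed 5 CPM, with 5749 CPM in the mature cells and 3410 CPM in the BMCPs. The B cell list reached 1355 CPM in a mature mast cell and 79837 CPM in a BMCP, and 2 BMCPs were set apart by it.

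These 2 wells, BMCP 46 and BMCP 80, held B cell RNA. Cd74 was at 49765 and 43636 CPM and Cd79a at 4795 and 6527 CPM. Kit was at 1.47 and 3.51 CPM, and Ms4a2, a chain of the IgE receptor, had no read in either well. Pooled ratios of the 4 genes, counts below the mature range, shares above a cut-off and gene list counts are also given without them where they move. So are the quartile folds of Tpsb2 and Cpa3. Other values include both wells unless stated.

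Tryptases are serine proteases stored in the secretory granules of mast cells, where the tetrameric forms are held on heparin attached to the proteoglycan serglycin. Carboxypeptidase A3 is a zinc metalloprotease of the same granules that removes amino acids from the carboxyl end of peptides. In mice the peritoneal, connective tissue type mast cells are rich in Tpsb2, which encodes the tryptase mMCP-6, in Cpa3 and in the chymases. Tpsab1 encodes mMCP-7, a protein that C57BL/6 mice lack because of a splice site change, so only its RNA is at issue here. Tpsg1 encodes tryptase gamma, which differs from the other two in having a membrane anchor.

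In GRCm38, Tpsb2 (ENSMUSG00000033825) lay on the plus strand at chr17:25366305-25369098 and Tpsg1 (ENSMUSG00000033200) on the same strand at chr17:25369273-25374442. Tpsab1 (ENSMUSG00000024173) lay on the minus strand at chr17:25343245-25345562, 20742 bases from Tpsb2. GENCODE listed it as protein coding and RefSeq as a transcribed pseudogene. Cpa3 (ENSMUSG00000001865) lay on the minus strand at chr3:20215620-20242181.

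The coding sequences of Tpsb2 and Tpsab1 were 75.7% identical over 827 aligned bases, which bears on whether reads of 50 bases could be told apart. The last coding exon is shown for both because it is a closely matching stretch that encodes the active site serine. It had 162 bases in each gene, 85.8% of them identical, and capitals mark the 23 bases that differ. The Tpsb2 exon lies at chr17:25367682-25367843 on the plus strand and the Tpsab1 exon at chr17:25343422-25343583 on the minus strand.
Tpsb2: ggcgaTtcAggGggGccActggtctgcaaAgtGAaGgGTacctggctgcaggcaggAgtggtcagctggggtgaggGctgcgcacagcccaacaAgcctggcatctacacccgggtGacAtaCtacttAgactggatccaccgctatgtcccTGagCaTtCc
Tpsab1: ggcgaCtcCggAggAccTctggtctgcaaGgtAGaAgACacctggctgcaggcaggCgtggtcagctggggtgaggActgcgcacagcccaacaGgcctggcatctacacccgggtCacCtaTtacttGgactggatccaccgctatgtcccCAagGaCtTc

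The longest run shared by the coding sequences of Tpsb2 and Tpsab1 was 39 bases, shorter than a read. It was 20 bases for Tpsb2 and Tpsg1 and 16 bases for Tpsab1 and Tpsg1. None of the 1636 distinct stretches of 50 bases in Tpsb2 transcripts, the 2187 of Tpsab1 or the 1466 of Cpa3 occurred in a transcript of another gene. For Tpsg1, 109 of 1434 stretches (7.60%) also occurred, on either strand, in transcripts of Cacna1h, a gene it overlaps. These counts hold for exact matches to the reference, and reads with sequencing errors were not modelled.

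By the outer bounds of the annotated genes, over all their transcripts, 174 bases separated the end of Tpsb2 from the start of Tpsg1. In 1 transcript of each gene, the last coding exon of Tpsb2 ended at chr17:25367843 and the first of Tpsg1 began at chr17:25370652. The gap between single transcripts can therefore be wider, and it was not measured. The 174-base gap is shown because, as described below, each cell was above the cut-offs of both genes or below both. Shared control of the 2 genes was not tested. The cut-offs were chosen after the values were seen. BMCP 5, at 82.8 CPM of Tpsg1, lay just under the 100 CPM used and far above the other low cells. In the 22 BMCPs below both cut-offs, Mcpt4 and Prss34 did not reach 100 CPM either. They reached it in only 38 and 26 of the 71 others. Mrgprb2, of the mast cell list, reached 100 CPM in 71 of 93 BMCPs, and whether these were the same cells was not examined. The gap runs on the plus strand over chr17:25369099-25369272 of GRCm38.p6 and comes from RefSeq promoter windows, which held 2 of the 4 genes. Capitals mark a match to GATAA on either strand, a core recognised by GATA factors, which began 92 bases before the first of 2 Tpsg1 starts in RefSeq. The full window of that first start, chr17:25369023-25369322, held 2 matches to GATAA and 1 to CANNTG. The window of the other start, chr17:25370303-25370602, held 0 matches to GATAA and 4 to CANNTG.
Gap: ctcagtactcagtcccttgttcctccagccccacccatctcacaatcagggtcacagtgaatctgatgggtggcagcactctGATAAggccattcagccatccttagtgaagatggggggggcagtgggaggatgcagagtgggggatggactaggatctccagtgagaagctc
The 250 bases before the Cpa3 start are shown for comparison. Of the 4 genes, Cpa3 alone stayed high in 20 BMCPs where the tryptases were low. Cma1, which is not among the 4, was at 5772 to 43402 CPM in the same cells. The 250 bases span chr3:20242182-20242431 on the minus strand, and capitals mark 1 GATAA match and 2 matches to CANNTG, the E-box core.
Cpa3: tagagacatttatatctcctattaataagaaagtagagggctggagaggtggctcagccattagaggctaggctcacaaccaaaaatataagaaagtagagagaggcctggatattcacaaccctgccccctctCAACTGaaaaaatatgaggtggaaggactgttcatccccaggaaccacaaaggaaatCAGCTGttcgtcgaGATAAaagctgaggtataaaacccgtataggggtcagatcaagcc
Of 32851 RefSeq promoter windows of 300 bases, 25.4% held GATAA and 72.3% held CANNTG, so such matches are common and describe letters only. The stretches shown, of 174 and 250 bases, are shorter than these windows.

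Every mature mast cell held Tpsb2 and Cpa3 RNA at a high level. Of their endogenous reads, 8.06% came from Tpsb2 and 7.36% from Cpa3, against 4.86% and 5.40% in BMCPs. Together the 4 genes took 15.7% of the reads of the pooled mature mast cells and 10.5% of those of the BMCPs. Tpsab1 was 2.61-fold higher in the pooled mature mast cells, and Tpsg1 was 1.15-fold higher in the pooled BMCPs. The groups overlapped for all 4 genes, and within the BMCPs the 3 tryptases were each split into cells with and without appreciable RNA.

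Tpsb2, the main tryptase, ranged from 21279 to 161485 CPM over mature mast cells with a median of 78244 CPM. In BMCPs it ranged from 91.4 to 112296 CPM with a median of 53553 CPM. The highest BMCPs reached the level of mature mast cells, while 28 BMCPs lay below the lowest mature mast cell and 9 mature mast cells lay above the highest BMCP. Pooled Tpsb2 was 80599 CPM (95% Poisson interval 80548 to 80650) in the mature cells and 48596 CPM (48557 to 48636) in the BMCPs, a log2 ratio of 0.73 on the scale of CPM + 1. The groups differed most at the low end. The lower quartile was 6.56-fold higher in mature mast cells, the median 1.46-fold and the upper quartile 1.16-fold. These folds were 4.96, 1.45 and 1.16 without BMCP 46 and BMCP 80, and 26 BMCPs then lay below the lowest mature mast cell.

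Cpa3 ranged from 28438 to 113662 CPM in mature mast cells (median 69786) and from 113 to 109611 CPM in BMCPs (median 49842). It was the most even of the 4 genes across BMCPs, with a coefficient of variation of 0.391, against 0.761 for Tpsb2, 0.954 for Tpsg1 and 2.31 for Tpsab1. Of the BMCPs, 85 lay within the range of mature mast cells and 8 below it. Pooled Cpa3 was 73559 CPM (73511 to 73608) in the mature cells and 53996 CPM (53954 to 54037) in the BMCPs, a log2 ratio of 0.45. The fold at the lower quartile, the median and the upper quartile was 1.59, 1.40 and 1.32, a shift shared by most of the distribution. Without BMCP 46 and BMCP 80 the lowest BMCP was at 3729 CPM, 6 BMCPs lay below the mature range, the coefficient of variation was 0.357 and the 3 folds were 1.55, 1.39 and 1.28.

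Tpsab1, the tryptase whose protein this strain lacks, ranged from 1.83 to 10164 CPM in mature mast cells with a median of 881 CPM. In BMCPs it ranged from 0 to 8925 CPM with a median of 3.91 CPM. The highest values were alike in both groups, but 25 BMCPs lay below the lowest mature mast cell. Pooled Tpsab1 was 1391 CPM (1384 to 1398) and 532 CPM (528 to 536), a log2 ratio of 1.38. This ratio differed between the blocks of the table's column order. It was 1.97 in the first 95 columns and 0.88, under a 2-fold difference, in the other 94. BMCP 77 alone held 12.6% of the Tpsab1 reads of its group.

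Tpsg1, the membrane tryptase, ranged from 166 to 6417 CPM in mature mast cells (median 1259) and from 0 to 8346 CPM in BMCPs (median 1523). It was the only one of the 4 genes with BMCPs above every mature mast cell, 2 in number, and 22 BMCPs lay below the lowest mature mast cell. Pooled Tpsg1 was 1667 CPM (1660 to 1674) in the mature cells and 1913 CPM (1905 to 1921) in the BMCPs, a log2 ratio of -0.20.

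**Figure D1:**
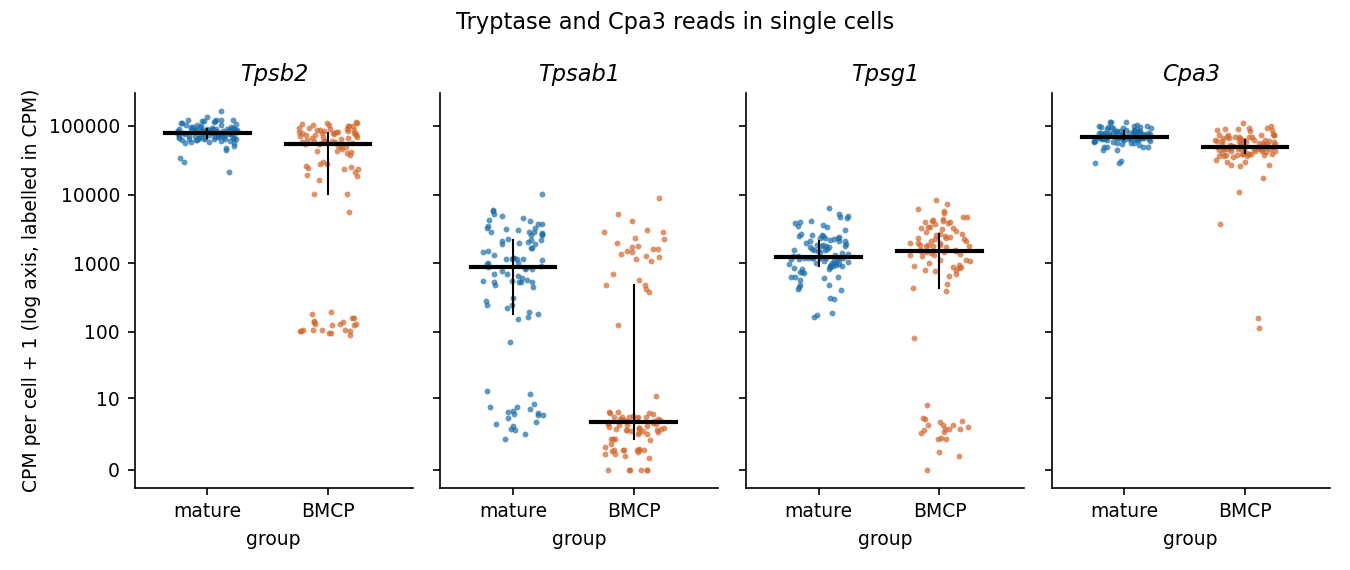
Reads of Tpsb2, Tpsab1, Tpsg1 and Cpa3 per cell in 94 mature mast cells and 93 BMCPs, as CPM + 1 on a log axis; each point is a cell, the thick bar the median and the thin line the quartiles. All mature mast cells lie in the upper cloud except for Tpsab1, and BMCPs form a second, lower cloud for each tryptase and, with 2 cells, for Cpa3.

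These ratios were read beside those of all genes, since totals to which granule genes contribute so much shift every other gene. Over the 10556 genes that had 5 CPM or more in a group the median log2 ratio was -0.25. Relative to it the log2 ratio was 1.63 for Tpsab1, 0.98 for Tpsb2, 0.70 for Cpa3 and 0.05 for Tpsg1. Of the 4 genes, 1 (Tpsab1) differed by at least 2-fold, as did 29.1% of all genes tested. It was higher in mature mast cells, as were 9.9% of genes at that fold, and 19.2% were higher in BMCPs. Among genes tested, 93.6% had a lower ratio than Tpsab1, 86.3% than Tpsb2, 80.1% than Cpa3 and 52.7% than Tpsg1.

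The direction for Tpsg1 depended on the scaling. With TMM factors its log2 ratio was 0.05 and with DESeq2 size factors 0.02, while scaling to ERCC spike-in RNA gave 0.71, or 0.55 without BMCP 55, whose ERCC share was 3.89%. The other 3 genes stayed higher in mature mast cells under every scaling. ERCC scaling put Tpsb2 at 1.64 and Cpa3 at 1.36, both past 2-fold, and the all-gene median at 0.64. From CPM alone, a change in a transcript and a change in the rest of a cell's RNA cannot be told apart.

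**Figure D2:**
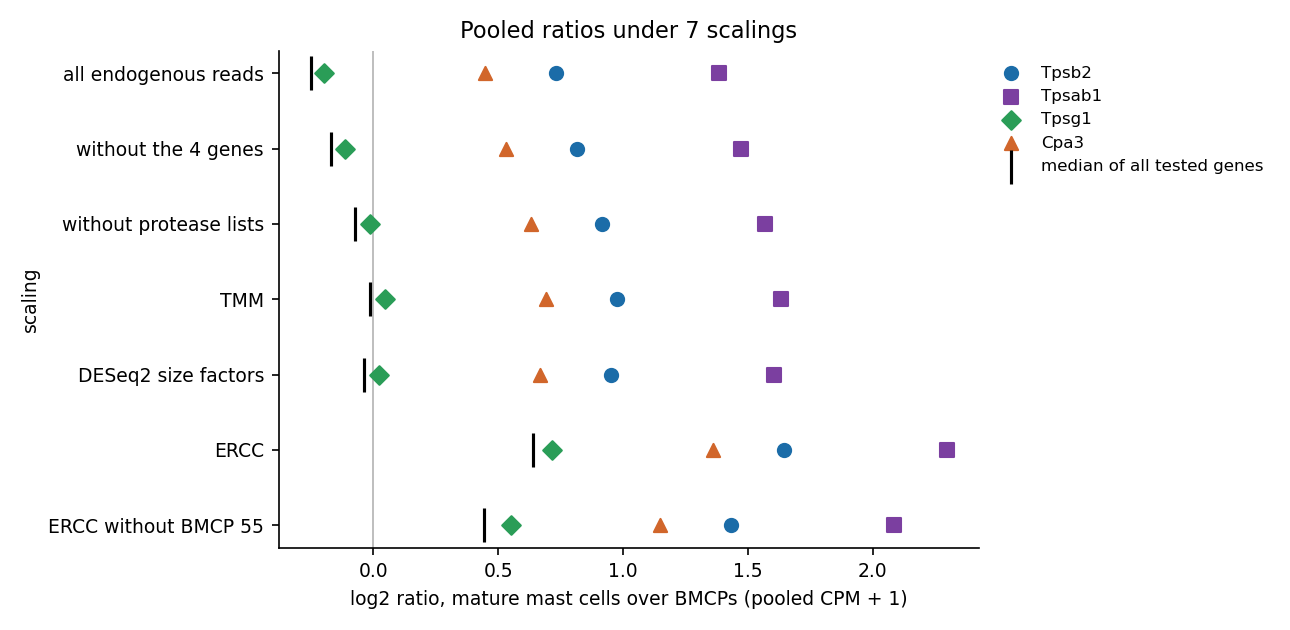
Log2 ratio of pooled mature mast cells over pooled BMCPs for the 4 genes (symbols) and the median of all tested genes (vertical dashes) under 7 scalings. The order Tpsab1, Tpsb2, Cpa3, Tpsg1 is the same in each row, and the Tpsg1 symbol changes sign near that median, from -0.20 with all endogenous reads to 0.71 with ERCC.

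Levels of different genes were compared per kilobase of exon. In mature mast cells Tpsb2 was at 50564 CPM per kilobase of merged exons, Cpa3 at 48490, Tpsg1 at 1200 and Tpsab1 at 664. In BMCPs the order was Cpa3 at 35594, Tpsb2 at 30487, Tpsg1 at 1377 and Tpsab1 at 254. With the length of 1 transcript a gene in place of merged exons, Tpsb2 stood above Cpa3 in BMCPs too, at 43467 against 37264, so the order of these neighbours in BMCPs rested on the length used. Within the tryptase reads of a group, Tpsab1 made up 1.66% for mature mast cells and 1.04% for BMCPs in the pooled reads. As a median over cells its share was 1.25% and 0.0299%. Tpsg1 made up 1.99% and 3.75% of the pooled reads.

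Cells were then counted by level, with cut-offs of 1000 CPM for Tpsb2 and Cpa3 and 100 CPM for Tpsab1 and Tpsg1 that were chosen after the values were seen. For Tpsb2 the gap was wide. In BMCPs 22 cells had 91.4 to 194 CPM and the next cell had 5503 CPM, and 71 of 93 (76.3%, exact Clopper-Pearson interval 66.4 to 84.5) lay above. Without BMCP 46 and BMCP 80 the share was 71 of 91 (78.02%). It was 36 of 47 and 35 of 46 in the blocks of the column order. All 94 mature mast cells lay above (100%, 96.2 to 100).

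Tpsg1 divided the BMCPs at the same place. In 22 BMCPs it had 0 to 82.8 CPM and the next cell had 397 CPM. The 71 BMCPs above the Tpsg1 cut-off were the 71 above that of Tpsb2, with no cell high for one and low for the other. The nearest to an exception was BMCP 5, with 82.8 CPM of Tpsg1 (91 reads) beside 159 CPM of Tpsb2. The other BMCPs below the cut-off had at most 7.83 CPM of Tpsg1, with 2.94 and 3.51 CPM in the wells with B cell RNA. BMCP 5 thus stood above the other low cells for Tpsg1 but not for Tpsb2, and the full match rested on the cut-off.

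Tpsab1 divided both groups. A level of 100 CPM was reached by 73 of the 94 mature mast cells (77.7%, 67.9 to 85.6). Among BMCPs it did so in 27 of 93 (29.03%, 20.1 to 39.4), or 27 of 91 (29.7%) without BMCP 46 and BMCP 80. The mature mast cells below had 1.83 to 72.1 CPM and the next had 157 CPM. The BMCPs below had 0 to 10.8 CPM and the next had 125 CPM. With every cell thinned to 100000 reads, any Tpsab1 read was found in 83 mature mast cells and 42 BMCPs, and at least 5 reads, a level near the gap, in 75 and 27.

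Across BMCPs Tpsab1 had a Spearman rho of 0.42 with endogenous reads per ERCC read and -0.01 with total reads, and the part of RNA content in its split was not tested. The gates differed in side scatter, which rises with cell granularity, so shares of cells with granule protease RNA and the gates themselves cannot be told apart.

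Cpa3 reached 1000 CPM in all mature mast cells and in 91 of 93 BMCPs (97.8%, 92.4 to 99.7). The exceptions were BMCP 46 and BMCP 80, at 113 and 160 CPM. The next lowest were BMCP 40 at 3729 CPM, BMCP 55 at 11033 CPM and BMCP 51 at 17240 CPM.

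Only 4 of the combinations of the 4 genes occurred in BMCPs. All 4 genes were above their cut-offs in 27 cells, and Tpsab1 alone was below in 44 cells. Cpa3 alone was above in 20 cells, and none was above in the 2 wells with B cell RNA. No cell had Tpsab1 without Tpsb2 and Tpsg1, and no cell had a tryptase without Cpa3. In mature mast cells 73 had all 4 and 21 lacked Tpsab1 only.

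**Figure D3:**
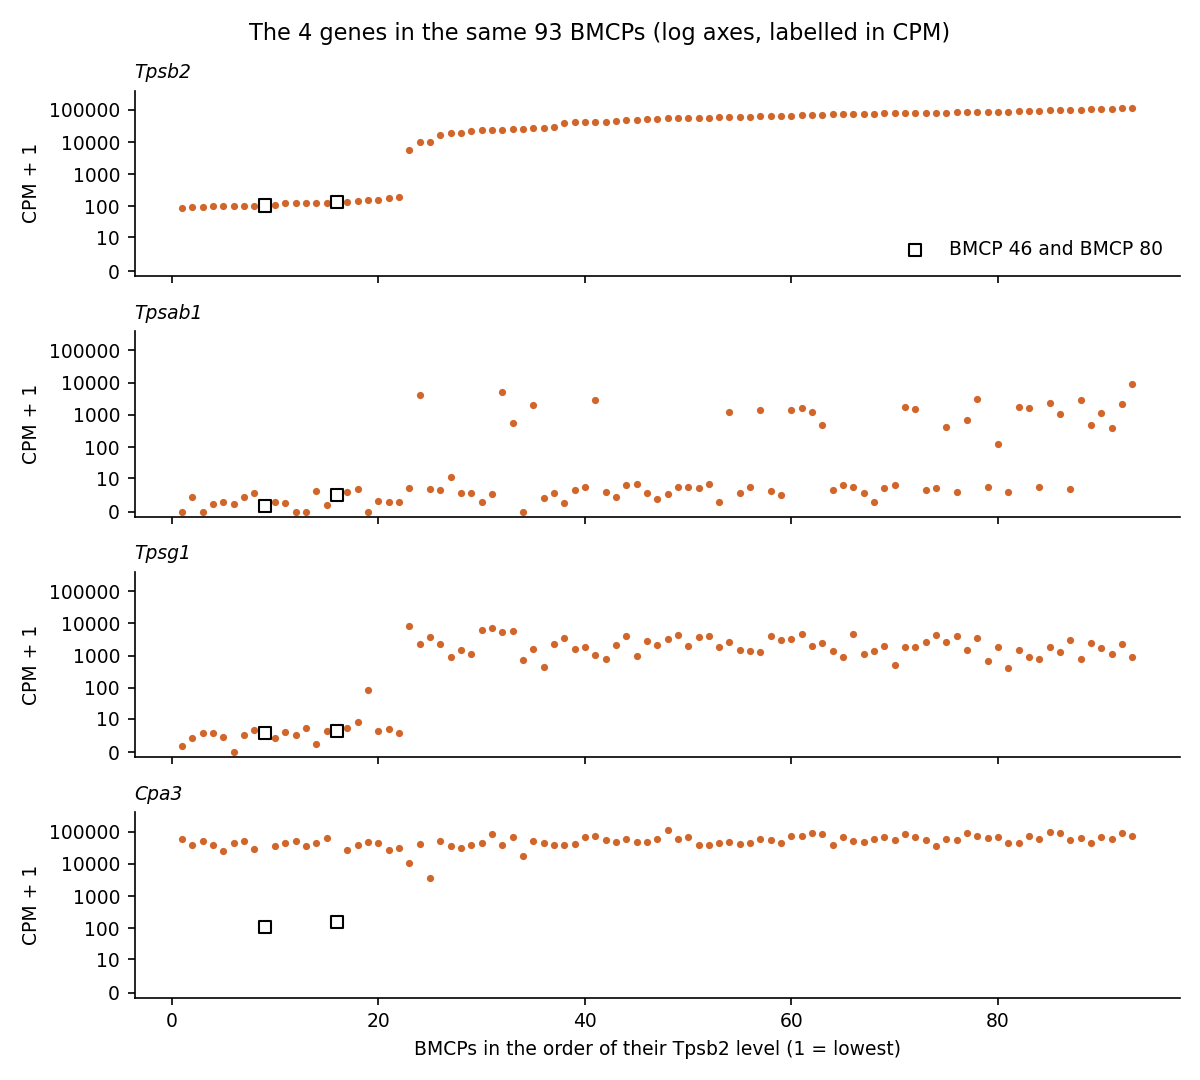
The 93 BMCPs in the order of their Tpsb2 level, with CPM + 1 of each gene in the same cells on log axes; squares mark BMCP 46 and BMCP 80. Tpsb2 and Tpsg1 step up at the same cell after the lowest 22, with BMCP 5 at 82.8 CPM of Tpsg1 before it. Tpsab1 is high in 27 cells to the right of that step, and Cpa3 is high on both sides of it.

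The 20 BMCPs with Cpa3 but no tryptase above the cut-off were examined by their other RNAs. Cpa3 was at 25788 to 61578 CPM in them, against 3729 to 109611 CPM in the 71 BMCPs with Tpsb2. The highest of the 20 lay well below the highest of the 71. The low end of 3729 CPM was BMCP 40 alone. Cma1, the chymase mMCP-5, was at 5772 to 43402 CPM, and Srgn, the serglycin core protein, at 1734 to 14539 CPM. Kit and Fcer1a each reached 100 CPM in 19 of the 20, and Hdc, the histamine-forming enzyme, in 8. Ms4a2 did so in 11. Of the 71 BMCPs with Tpsb2, 67 reached 100 CPM of Kit, 67 of Fcer1a, 63 of Ms4a2 and 55 of Hdc. Of the B cell genes, Cd79a was at most 1.59 CPM and Cd79b at most 2.34 CPM, while Ighm reached 637 CPM, with at least 100 CPM in 3 cells, and Cd74 151 CPM.

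In the same 20 cells Gzmb, granzyme B, was at 5737 to 22013 CPM and Mcpt8, the basophil protease mMCP-8, at 454 to 36263 CPM. Mcpt4, the chymase mMCP-4, was at most 37.8 CPM and Prss34, the basophil and mast cell protease mMCP-11, at most 8.55 CPM. Of the 71 BMCPs with Tpsb2, 40 also had at least 100 CPM of Gzmb and 19 of Mcpt8. Of the 34 BMCPs with at least 1000 CPM of Mcpt4, all had Tpsb2, and so did all 26 with at least 100 CPM of Prss34. Tpsab1 was above its cut-off in 21 of the 34 BMCPs with Mcpt4 and in 4 of the 60 with Gzmb.

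The low Tpsb2 values were set beside those of the wells with B cell RNA, where the gene is not known to be active. Tpsb2 was at 107 CPM in BMCP 46 and 138 CPM in BMCP 80, or 0.166% and 0.214% of the level over all kept cells. Cpa3 stood at 0.177% and 0.252% of its own level, Cma1 at 0.160% and 0.219%, and Tpsg1 at 0.164% and 0.196%. The 20 other low BMCPs had Tpsb2 at 0.142% to 0.300% (median 0.199%). These ranges overlapped, and the source of the reads was not tested. Reads at this level are not counted here as expression of the gene. Without thinning, 94 of 94 mature mast cells and 87 of 93 BMCPs had a Tpsab1 read, as did the wells with B cell RNA, with 1 and 2 reads.

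**Figure D4:**
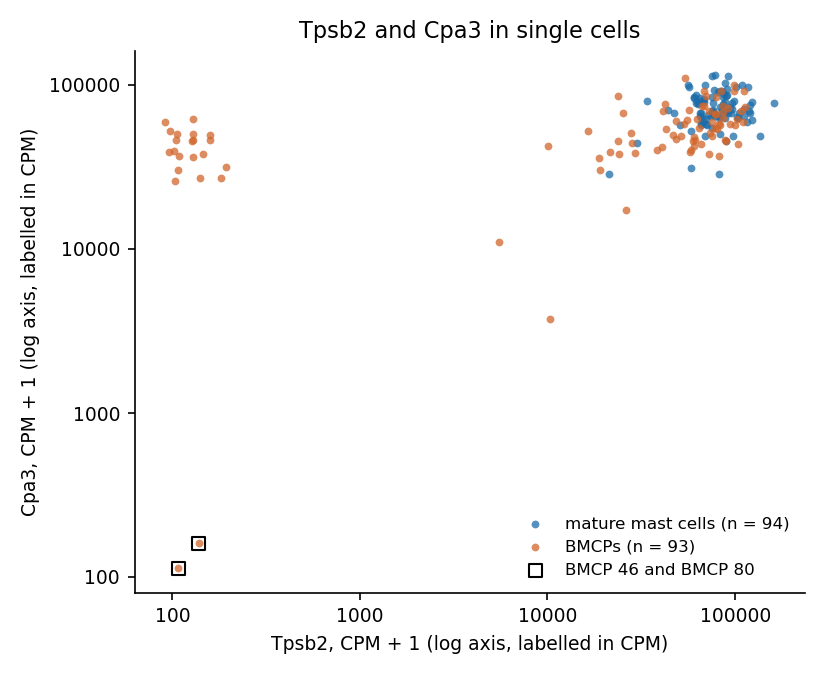
Tpsb2 against Cpa3 in each cell, as CPM + 1 on log axes, with squares around BMCP 46 and BMCP 80. Most BMCPs share the cloud of the mature mast cells at the upper right, 20 lie at the upper left with Cpa3 at 25788 to 61578 CPM and Tpsb2 at most 194 CPM, and the 2 marked wells are low for both.

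The log2 ratio of Tpsb2 to Cpa3 within a cell does not depend on the library total. Since it is not per length, it is compared only between cells. It had a median of 0.17 (95% interval of the median over cells 0.06 to 0.23) in mature mast cells and ranged from -1.23 to 1.53, with an SD of 0.50 over cells. In BMCPs the median was -0.11 (-0.38 to 0.09) and the range -9.32 to 1.46. The upper quartile was 0.42 in mature mast cells and 0.47 in BMCPs. The lower tails differed more: 20 BMCPs had a ratio under -5 and 1 between -5 and -2.

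Correlations across cells are given as descriptions, since the labels assigned no cell to a mouse or plate and these genes contribute to the totals. Because BMCPs formed separate clouds, pairs of Tpsb2, Tpsg1 and Cpa3 were described within the 94 mature mast cells and within the 71 BMCPs above the Tpsb2 cut-off. Tpsab1, which formed clouds in both groups, is described by the counts above.

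Tpsb2 and Tpsg1, above or below their cut-offs together among BMCPs, did not rise together among the cells that had both. In mature mast cells the Spearman rho was -0.44 and Pearson's r -0.40 on log2 values of CPM + 1. In the 71 BMCPs rho was -0.26 and r -0.27. With totals that left out the 4 genes rho was -0.39 and -0.21. With ERCC reads as the total it was 0.18 and 0.27, so its sign rested on the total used.

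Tpsb2 and Cpa3 had a rho of 0.08 in mature mast cells and 0.48 in the 71 BMCPs. Leaving the 4 genes out of the totals gave 0.25 and 0.57, and ERCC totals, which add a shared term to both genes of a cell, gave 0.83 and 0.71. Tpsg1 and Cpa3 were nearly unrelated in CPM, with a rho of -0.04 in mature mast cells and -0.05 in the 71 BMCPs. ERCC totals gave 0.27 and 0.46.

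**Figure D5:**
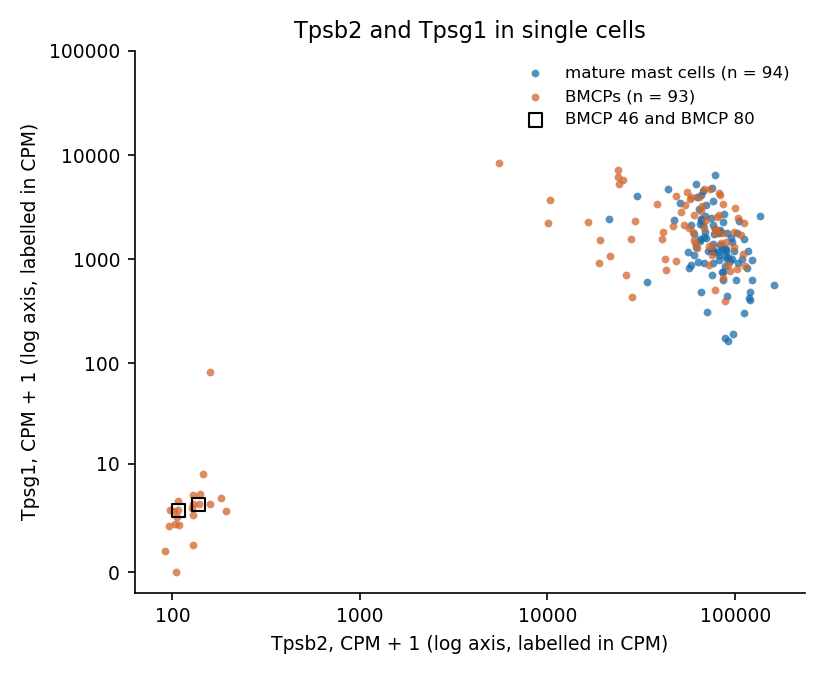
Tpsb2 against Tpsg1 in each cell, as CPM + 1 on log axes, with squares around BMCP 46 and BMCP 80. The 22 BMCPs at the lower left include BMCP 5, which stands above the others at 82.8 CPM of Tpsg1. The upper right cloud holds 71 BMCPs and 94 mature mast cells, and within it Tpsg1 does not rise with Tpsb2.

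Genes whose pattern was most like Tpsb2 or Cpa3 were taken by the mean of the rho in 94 mature mast cells and in 93 BMCPs, over 1915 genes. This rho was computed with totals that left out the 4 genes, and in BMCPs it includes the step between clouds. For Tpsb2 the closest were Pla2g7 at 0.51, Cma1 at 0.50, Cpa3 at 0.46, Slc29a1 at 0.45 and Cd81 at 0.45. The middle 90% of genes lay between -0.16 and 0.17. For Cpa3 they were Cma1 at 0.55, Tpsb2 at 0.46, Ecm1 at 0.42, Tph1 at 0.41 and Serpinb1a at 0.38, where the middle 90% lay between -0.13 and 0.20. Pla2g7 encodes a phospholipase that breaks down platelet-activating factor, and Tph1 the first enzyme of serotonin synthesis. Lowest were Cnn2 at -0.29, Ubxn4 at -0.27 and Coro1a at -0.27 with Tpsb2, and Ubxn4 at -0.27, Ivns1abp at -0.26 and Eif3i at -0.26 with Cpa3. Without BMCP 46 and BMCP 80 the 5 highest genes for Tpsb2 were again these 5. For Cpa3, Serpinb1a moved to place 6 at 0.36. Coro1a and Eif3i moved to places 6 and 7 from the lowest.

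The gene list counts below stand beside 9.9% of the tested genes that were 2-fold higher in mature mast cells and 19.2% that were so in BMCPs. These shares were 9.83% and 18.2% without BMCP 46 and BMCP 80. The lists are small, and no count is read as particular to its list.

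Other proteases of the tryptase locus were mostly at or near 0. Of 10 listed, 8 had fewer than 5 CPM in either group. Prss34 had 2899 CPM in the mature cells and 1580 CPM in the BMCPs, a log2 ratio of 0.88, and reached 100 CPM in 37 of 94 and 26 of 93 cells. Prss28 had 15.5 and 3.89 CPM, a log2 ratio of 1.75, with 100 CPM in 7 and 2 cells. It was the 1 gene of the list past 2-fold.

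Chymases and their relatives went both ways. Of 7 with at least 5 CPM, 1 was 2-fold higher in mature mast cells and 4 in BMCPs. Cma1 had a log2 ratio of 0.72, close to the 0.73 of Tpsb2. Mcpt4 had 1.98, while Ctsg, cathepsin G, had -1.55, Mcpt8 -6.72 and Gzmb -10.07. The median log2 ratio of the 7 was -1.32.

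Among other carboxypeptidases 6 of 16 matched genes passed 5 CPM, with 1 past 2-fold higher in mature mast cells and 3 in BMCPs. Cpd, Cpm and Cpxm1, which make up 3 of these 4, each reached 100 CPM in at most 1 cell of a group. BMCP 46 held 99.7% of the Cpm reads of BMCPs, and without the wells with B cell RNA 2 of 5 were higher in BMCPs. Cpq, a plasma and lysosomal peptidase, was at 155 CPM in the mature cells and 77.6 CPM in the BMCPs, and Cpb1, a digestive enzyme, at 2.36 and 26.3 CPM. Cpq was the most abundant of this list in either group.

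Among 9 lysosomal and granule proteases, the cathepsins and Lgmn, none was 2-fold higher in mature mast cells and 4 were 2-fold higher in BMCPs. The BMCP count was 2 of 7 without the wells with B cell RNA. Ctsc, the dipeptidyl peptidase that activates granule serine proteases, had 215 CPM in the mature cells and 554 CPM in the BMCPs, a log2 ratio of -1.36. Ctsd had 5877 and 3887 CPM. Ctss, Ctsh and Lgmn, the other 3 of the 4, had 28.5, 27.5 and 5.59 CPM in all BMCPs, but BMCP 80 alone held 80.4%, 55.2% and 100% of those reads. They had 5.73, 0.034 and 0 CPM once BMCP 46 and BMCP 80 were left out.

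Genes of the storage matrix passed 2-fold in both directions. Of 12 with at least 5 CPM, 2 were 2-fold higher in mature mast cells and 1 was so in BMCPs. Their median log2 ratio was -0.09 beside -0.25 for all genes. Leaving out the wells with B cell RNA gave 3 in BMCPs, with Ndst1 at -1.005 and Glce at -1.0001 added at the limit. Srgn had 4768 and 5368 CPM, and Ndst2, the sulfotransferase needed for mast cell heparin, 1857 and 1295 CPM. Hs3st1, another heparan sulfotransferase, had a log2 ratio of -1.28. Xylt2, which starts the sugar chain, had 2.30, with 100 CPM in 8 mature mast cells and 1 BMCP.

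Of 12 listed genes, protease inhibitors and a receptor, 6 had at least 5 CPM, and none of these 6 passed 2-fold. Below that level Serpinb6b had 4.08 and 0.0753 CPM and Serpina3g 0 and 2.74 CPM. Lxn, latexin, an inhibitor of carboxypeptidases, had 444 CPM in the mature cells and 378 CPM in the BMCPs. Serpinb1a had 5450 and 4896 CPM. F2rl1, which encodes the tryptase-activated receptor PAR2, had 1 read in each group.

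Of 15 transcription factors of mast cells, all above 5 CPM, 1 was 2-fold higher in mature mast cells and 4 were so in BMCPs. Their median log2 ratio was -0.42. Gata2, a regulator of mast cell protease genes, had 1041 and 1394 CPM, and Mitf, also known for tryptase gene control, 97.4 and 126 CPM. Meis2 had 165 and 53.9 CPM. Runx1 had a log2 ratio of -2.57, Stat5a -1.95, Bhlhe40 -1.46 and Lmo2 -1.02. Lmo2 was at the limit, and with totals without the 4 genes 3 factors were 2-fold higher in BMCPs. The Lmo2 ratio was -0.95 without BMCP 46 and BMCP 80, where Stat5b reached -1.001 and the count stayed at 4.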

How the data were processed

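Single cells were profiled by a plate protocol with poly(A) priming, 23 PCR cycles and ERCC spike-in RNA, and sequenced as 50-base single-end reads, per the labels' protocols. The authors deposited raw read counts per gene, a column per cell, without normalization. The submitters' processing notes name GSNAP, HTSeq 0.5.3p3 and mm10. The annotation release, the strand setting and the handling of multiply mapped reads are not given in the sources used here. The table had 189 cell columns, 46078 gene rows, 92 ERCC rows and 5 summary rows, and 1 empty column was not used. In kept cells 14.4% of reads had no feature, 14.1% were not aligned, 3.11% were ambiguous and 0.122% were ERCC. None of these entered the totals.

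Cells with fewer than 100000 endogenous reads were left out (BMCP 6 with 3978 and BMCP 93 with 36972). Doublets were not called, since wells were sorted to hold 1 cell. Counts were summed per group, and ratios were log2 of CPM + 1 for genes at 5 CPM or more in a group. Counts of CPM have exact Poisson intervals and shares exact Clopper-Pearson intervals at 95%. Where no read was found in a group, 3 reads would correspond to 0.0252 CPM in the mature cells and 0.0251 CPM in the BMCPs. Plates and index kits were not assigned to cells by the labels. Blocks of the column order are therefore only that.

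The 4 genes, the gene lists (tryptase locus, chymases, other carboxypeptidases, cathepsins, storage matrix, inhibitors, transcription factors, and markers of mast cells, basophils, B cells, macrophages, T cells, eosinophils, neutrophils and erythroid cells) and the rules were chosen with earlier results of these data known. Named genes were the 4, list genes at 5 CPM or more in a group, and the 5 highest and 3 lowest genes by mean rho with Tpsb2 and with Cpa3 among genes with at least 50 CPM and a read in 50% of cells. The F2rl1 value and the list genes with few reads were named as low. Scaling factors came from edgeR 4.0.16 (TMM) and DESeq2 1.42.0 on pooled counts in R 4.3.3, and other steps used Python 3.11.15, pandas 2.3.3, scipy 1.17.1 and Biopython 1.88. Loci and transcripts came from GENCODE M21, and promoter windows from RefSeq on GRCm38.p6. The pooled log2 ratio and the rank correlation were checked on simulated Poisson counts with the same profile for all cells of a group. Other steps were not checked in this way.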

Additional observations from a re-analysis of the deposited data

How the results depend on the processing

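The log2 ratios of Tpsb2, Tpsab1, Tpsg1 and Cpa3, in that order, were 0.82, 1.47, -0.11 and 0.53 with totals without the 4 genes and 0.91, 1.57, -0.014 and 0.63 without all protease lists. They were 0.98, 1.63, 0.048 and 0.69 with TMM, 0.95, 1.61, 0.024 and 0.67 with DESeq2 size factors, 1.64, 2.30, 0.71 and 1.36 with ERCC, and 1.43, 2.08, 0.55 and 1.15 with ERCC without BMCP 55. Median CPM over cells gave 0.55, 7.49, -0.28 and 0.49, and leaving out BMCP 46 and BMCP 80 gave 0.69, 1.35, -0.23 and 0.41. The first block of columns gave 0.62, 1.97, -0.32 and 0.46 and the second 0.85, 0.88, -0.072 and 0.43. Mean CPM over cells gave 0.77 for Tpsb2, -0.14 for Tpsg1 and 0.47 for Cpa3. Dropping from each group the cell richest in the gene gave 0.75 for Tpsb2, 1.47 for Tpsab1 and 0.46 for Cpa3. A minimum of 500000 reads gave 0.73 for Tpsb2 and 1.47 for Tpsab1, and adding 10 CPM gave 1.37 for Tpsab1. Another 15 ratios stayed within the counting interval, and only Tpsg1 changed sign.

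A rank correlation among members was called moved past 0.05, a tolerance set by choice. In mature mast cells ERCC totals gave 0.37 for Tpsb2 and Tpsab1, 0.18 for Tpsb2 and Tpsg1, 0.83 for Tpsb2 and Cpa3, 0.063 for Tpsab1 and Tpsg1, 0.34 for Tpsab1 and Cpa3 and 0.27 for Tpsg1 and Cpa3. Totals without the 4 genes gave 0.25 for Tpsb2 and Cpa3 and 0.016 for Tpsab1 and Cpa3. The blocks of columns gave -0.61 and -0.33 for Tpsb2 and Tpsg1 and -0.29 and -0.095 for Tpsab1 and Tpsg1. Over all 93 BMCPs, clouds included, ERCC totals gave for the same pairs 0.77, 0.67, 0.71, 0.62, 0.77 and 0.55. Totals without the 4 genes gave 0.67 for Tpsb2 and Cpa3, 0.56 for Tpsab1 and Cpa3 and 0.33 for Tpsg1 and Cpa3. The first block gave 0.51 for Tpsb2 and Cpa3 and 0.40 for Tpsg1 and Cpa3, and the second 0.38 for Tpsb2 and Tpsg1 and 0.12 for Tpsg1 and Cpa3. In the 71 BMCPs with Tpsb2, rho was 0.39 for Tpsb2 and Tpsab1, -0.26 for Tpsb2 and Tpsg1, 0.48 for Tpsb2 and Cpa3, -0.059 for Tpsab1 and Tpsg1 and -0.051 for Tpsg1 and Cpa3. The sign changes arose with the total or the cells used, and their cause was not tested.

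The Tpsab1 share of tryptase reads was 1.25% in mature mast cells and 0.0299% in BMCPs as a median over cells, and 1.56% and 0.916% without the cell with most Tpsab1 reads. Any read of Tpsab1 was found in 88.3% of thinned mature mast cells and 45.2% of thinned BMCPs, 100% and 93.5% unthinned, and 79.8% and 29.03% at 5 reads or more, and unthinned Tpsg1 in 98.9% of BMCPs. The mean log2 ratio of Tpsb2 to Cpa3 in BMCPs was -1.77. Cpa3 reached its cut-off in 100% of BMCPs without BMCP 46 and BMCP 80. The length of 1 transcript gave, for mature mast cells and BMCPs, 72092 and 43467 CPM per kilobase for Tpsb2, 1203 and 460 for Tpsab1, 1406 and 1613 for Tpsg1 and 50766 and 37264 for Cpa3. Other carboxypeptidases higher in mature mast cells numbered 2 with a 1 CPM minimum or with totals without the 4 genes, and the 1 CPM minimum gave 1 inhibitor in each direction. Without BMCP 46 and BMCP 80, 2 cathepsin list genes and 3 storage matrix genes were higher in BMCPs. Blocks of columns, leaving out wells from level counts, list counts and correlations, the 71 BMCPs and the transcript length were chosen after seeing the data. No paired analysis was possible because the numbers shared by the groups only number cells and no test was made. Depth limited only low values: a median cell of either group has about 2.4 CPM for 3 reads.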
